A study of Homo sapiens with 9 samples.

Results

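A total of 52 genes met a rule for transcripts that were lower after 72 h of CDDO-Me and close to vehicle after 24 h, out of 58299 genes in the table. Of these, 9759 had a mean of at least 8 CPM, the read count of a gene scaled to the library total. The rule asked for all 3 CDDO-Me 72 h libraries to lie below the other 6, for a median log2 CPM at least 0.5 below DMSO at 72 h, and for 24 h and DMSO medians within 0.25 of each other. Of 57 genes that met it, 5 were set aside by their symbols (LTBP3, COL13A1, MT2A, MT1E and SLC7A5). The values of all 3 groups chose the genes, so their levels are given below as a description, with no test. By these limits the genes were reduced and not lost. The median over the 52 was 34.3% lower CPM at 72 h than in DMSO, with a range of 29.6% to 60.3%. SPOCK1 and MLPH, 2 of the 52, were at least 2-fold lower.

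The cells were AC16, an established human line obtained by fusing adult ventricular heart cells with SV40-transformed fibroblasts. RNA was measured in 3 libraries after CDDO-Me at 100 nM over 72 h, 3 after the same dose over 24 h, and 3 after 0.1% DMSO over 72 h. No 24 h vehicle was analysed here. The 24 h group therefore had a shorter treatment than its vehicle, besides the drug. The treatment labels do not give the time in culture. Both CDDO-Me groups are compared with the same DMSO libraries. CDDO-Me (bardoxolone methyl) is a triterpenoid that binds KEAP1, the adaptor through which the transcription factor NRF2 is degraded. Total counts were between 16898977 and 27910031 per library, at which 3 counts equal 0.107 to 0.178 CPM.

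As background, adherent mesenchymal cells lay down a matrix of fibronectin and collagen, which lysyl oxidase crosslinks. Integrins in the membrane bind this matrix, paxillin and related scaffolds join them to actin at focal adhesions, and myosin light chain kinase and LIM kinase set the tension and turnover of that actin. Endoglin sits beside the receptors for TGF-beta, a signal that raises many matrix genes in fibroblasts and in the heart. The 52 genes were put into 7 classes by their known roles: 16 regulators of transcription and chromatin, 12 cytoskeleton, adhesion and scaffold proteins, 7 cell surface proteins, 7 signalling proteins and other enzymes, 6 secreted and matrix proteins, 3 ion channel subunits and 1 pseudogene.

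The promoters of 41 of the 52 genes were found in a RefSeq table of GRCh38.p14, and SPOCK1 was not among the 41. The 250 bases before the start are shown for FN1 and LOX as matrix genes, ENG as a receptor, MYLK as a contractile gene and MLPH as the gene with the second largest difference, 5′ to 3′ on the gene's strand, with every match to a searched motif in capitals.
MLPH promoter (chr2:237487001-237487250, plus strand): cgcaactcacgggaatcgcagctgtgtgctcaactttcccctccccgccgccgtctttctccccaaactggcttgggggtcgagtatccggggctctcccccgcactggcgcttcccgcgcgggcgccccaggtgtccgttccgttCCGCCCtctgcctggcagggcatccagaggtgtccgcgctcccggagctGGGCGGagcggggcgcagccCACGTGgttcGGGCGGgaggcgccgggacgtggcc
FN1 promoter (chr2:215436069-215436318, minus strand): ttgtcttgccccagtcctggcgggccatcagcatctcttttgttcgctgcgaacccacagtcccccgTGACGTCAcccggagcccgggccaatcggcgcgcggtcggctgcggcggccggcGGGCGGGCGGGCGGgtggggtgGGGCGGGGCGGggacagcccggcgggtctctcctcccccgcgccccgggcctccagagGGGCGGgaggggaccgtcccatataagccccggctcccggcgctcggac
ENG promoter (chr9:127854659-127854908, minus strand): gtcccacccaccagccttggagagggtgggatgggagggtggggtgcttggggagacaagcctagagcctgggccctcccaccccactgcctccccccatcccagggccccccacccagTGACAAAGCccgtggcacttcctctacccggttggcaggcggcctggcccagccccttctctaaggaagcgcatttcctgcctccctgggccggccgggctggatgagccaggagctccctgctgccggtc
LOX promoter (chr5:122078260-122078509, minus strand): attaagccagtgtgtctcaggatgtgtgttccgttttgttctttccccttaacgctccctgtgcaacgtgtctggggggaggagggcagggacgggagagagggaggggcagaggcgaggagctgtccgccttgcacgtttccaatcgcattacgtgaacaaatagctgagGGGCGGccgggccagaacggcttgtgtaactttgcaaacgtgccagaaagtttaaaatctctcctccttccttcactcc
MYLK promoter (chr3:123620549-123620798, minus strand): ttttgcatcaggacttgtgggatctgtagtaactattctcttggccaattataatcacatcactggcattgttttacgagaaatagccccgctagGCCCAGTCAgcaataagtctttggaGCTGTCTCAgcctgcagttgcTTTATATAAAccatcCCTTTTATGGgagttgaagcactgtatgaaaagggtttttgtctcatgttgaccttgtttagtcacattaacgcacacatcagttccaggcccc
The MYLK and MLPH windows precede starts that lie inside the genes as the deposited table places them, 263783 bases from the 5′ end of MYLK (chromosome 3, 123610049 to 123884331) and 1823 bases from that of MLPH, so they are internal starts and not those of the longest transcripts. In FN1, LOX and ENG the start lay 98 to 104 bases inside. Motifs were searched on both strands, and matches may overlap. The GC box (GGGCGG) was in 30 of 41 promoters (73.2%), against 69.8% of 8026 promoters of genes with a mean of at least 8 CPM, and is marked in FN1, LOX and MLPH. The core of the antioxidant response element, which NRF2 binds (TGANNNNGC), was in 12 (29.3%), against 35.6%, and is marked in ENG and MYLK. The E-box CACGTG was in 6 (14.6%), against 9.32%, and is marked in MLPH.

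A cyclic AMP response element (TGACGTCA) was in the FN1 promoter and in no other of the 41, against 3.15% of all. A CArG box, the site of serum response factor, and a TATA box (TATAAA) are both marked in MYLK; the CArG box was in 1 of 41, against 1.06%, and TATAAA in 2, MYLK and CABLES1, against 4.63%. The TEAD motif GGAATG was in 2, ADAMTS6 and UACA, against 9.47%. No promoter held the AP-1 motif TGANTCA, against 3.49% of all, which says only that these letters are not in these windows. The median GC content was 68.0%, against 65.6% over all.

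The 9 libraries were not evenly spread. CDDO-Me 24 h replicate 3 and DMSO replicate 1 stood apart from their groups. The median absolute log2 difference of 24 h replicate 3 from its group mates was 0.207 and 0.182. From the 72 h libraries it was 0.134 to 0.143, and from the DMSO libraries 0.145 to 0.169. This 24 h library was therefore nearer to the 72 h libraries, and also to the DMSO libraries, than to its own group. It also had the highest total count, 27910031. DMSO replicate 1 differed from its mates by 0.136 and 0.162, and these from each other by 0.113. The median log2 level of 10 RNAs retained in the nucleus, relative to the DMSO mean, was −0.21, −0.26 and −0.33 in the CDDO-Me 72 h libraries, 0.41, 0.75 and −0.35 in the CDDO-Me 24 h libraries, and 0.45, −0.24 and −0.15 in the DMSO libraries. Both libraries therefore differ from their group mates in this measure as well, and its part in the results below was not tested. NQO1, a standard NRF2 target that checks the treatment, had 3376, 3286 and 3340.3 CPM at 72 h, 1713, 1839 and 2127 CPM at 24 h and 424, 416 and 498 CPM in DMSO. Of 15 cardiac muscle markers, 13 were under 1 CPM, among them TNNT2, MYH6, MYH7 and NKX2-5, and 6 were at 0 in all libraries, so the heart muscle label of the line is not borne by its defining transcripts. All 14 fibroblast markers were above 1 CPM, with summed levels of 18426 to 18965 CPM at 72 h, 13588 to 21804 CPM at 24 h and 16886 to 18226 CPM in DMSO. The fibroblast sums were thus higher at 72 h than in DMSO with no overlap, and the other marker sums were lower with no overlap. The share of all genes that separate these 2 groups is not given here, so these separations have no background. The 8 smooth muscle markers summed to 358 to 374 CPM at 72 h, 383 to 427 CPM at 24 h and 513 to 649.8 CPM in DMSO, and the 8 epithelial markers to 129 to 138 CPM, 153 to 226 CPM and 222 to 268 CPM in the same groups. The smooth muscle markers include MYLK, which the rule chose as lower at 72 h. Their sum therefore partly restates the rule. Sums of the 15 cardiac markers were 27.1 to 28.1 CPM at 72 h and 31.97 to 33.1 CPM in DMSO, those of 9 endothelial markers (8 under 1 CPM) 8.597 to 9.73 CPM and 14.4 to 16.8 CPM, and those of 8 immune markers (6 under 1 CPM) 2.55 to 3.43 CPM and 4.21 to 4.67 CPM. The part of these markers in the results below was not tested. In bulk RNA, fewer cells of a type and less RNA per cell cannot be told apart.

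Over the 52 genes the median difference in log2 CPM between 72 h and DMSO was −0.61, against 0.01 over all 9759 genes, and the median between 24 h and DMSO was −0.09, against 0.02. Of the 9759 genes, 587 (6.01%) had all 72 h libraries below the other 6 and 130 (1.33%) also fell by the limit of 0.5. The full rule took 57 (0.584%) before symbols were set aside and 52 (0.533%) after. Its mirror image, genes higher at 72 h only, took 34 (0.348%), and all 3 libraries of 72 h lay above the other 6 for 654 genes (6.7%). Within the set the differences were crowded at the limit: 25 of 52 lay between −0.5 and −0.6, and 11 were past −0.7. The gap between the highest 72 h library and the lowest of the other 6 was over 0.2 log2 in 30 genes and under 0.1 in 8. The 72 h libraries lay close together, with a median SD of 4.06% of the mean over the 52 genes, against 11.7% at 24 h and 9.63% in DMSO. Over all 9759 genes these medians were 3.83%, 9.43% and 8.22%. Summed over the set, the genes held 7281, 7312 and 7151 CPM at 72 h, 12380.0, 12176 and 9952 CPM at 24 h and 14625, 11307 and 11153 CPM in DMSO.

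**Figure D1:**
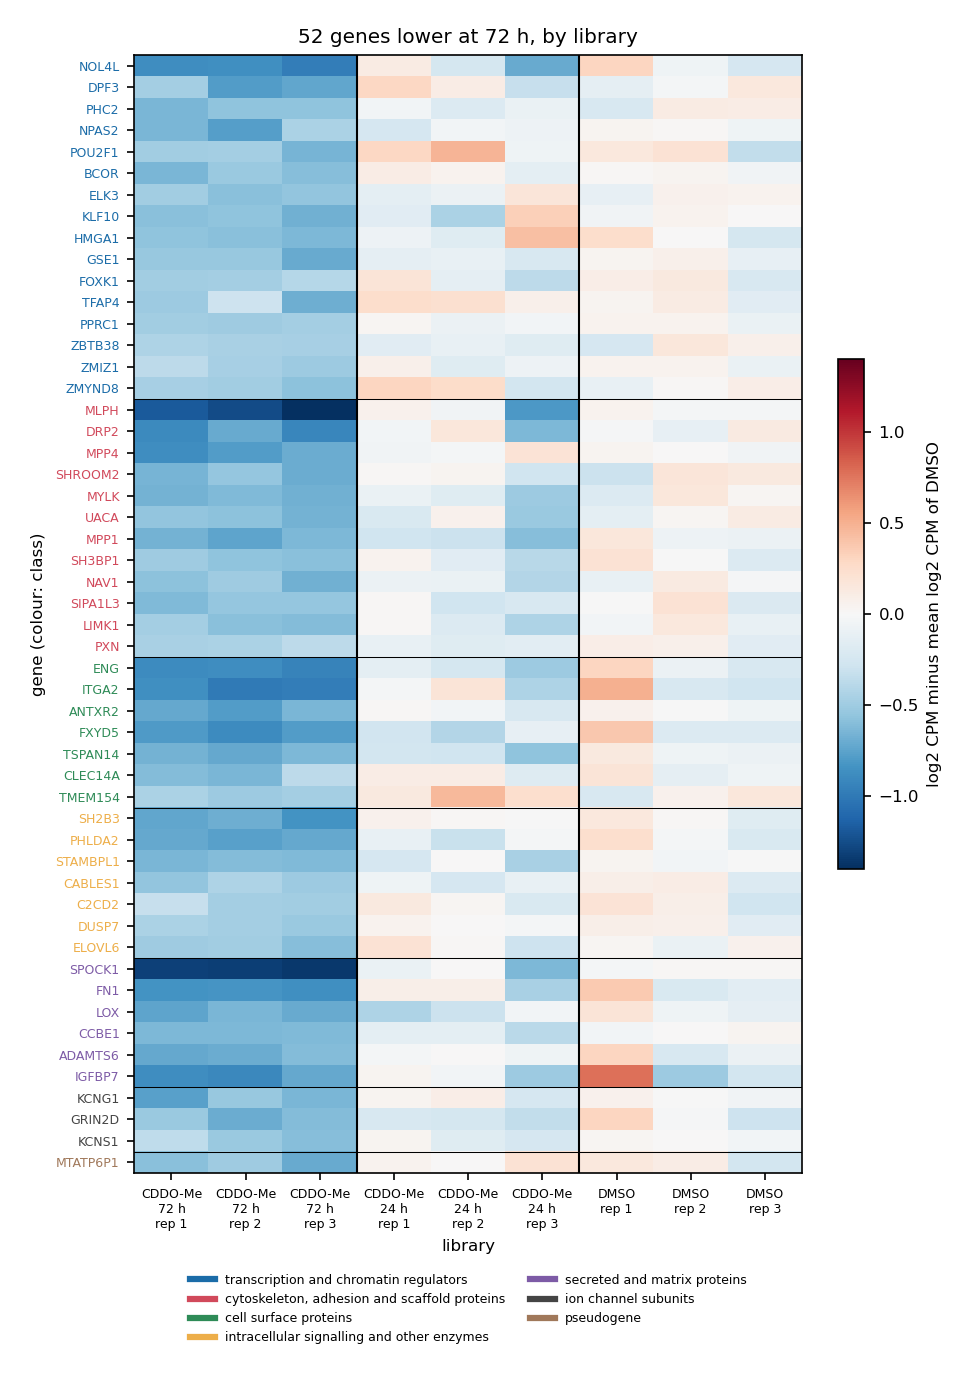
Log2 CPM of the 52 genes in each of the 9 libraries, minus the mean of the 3 DMSO libraries; rows are genes with symbols coloured by class, columns are libraries, and blue is lower than DMSO. The 3 CDDO-Me 72 h columns are blue in every row, which the rule requires, and 24 h replicate 3 is the lowest of its group in 36 rows.

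Among the 6 secreted and matrix genes, fibronectin held more counts than the other 51 genes together in each library. FN1 (ENSG00000115414, chromosome 2, 215360440 to 215436172) had 3919, 3958 and 3851 CPM in the CDDO-Me 72 h libraries, 7443, 7409 and 5134 CPM in the CDDO-Me 24 h libraries and 9033, 6033.5 and 6314.5 CPM in the DMSO libraries. The 24 h and DMSO libraries overlapped, with DMSO replicate 1 the highest of the 9 and 24 h replicate 3 the lowest outside 72 h. FN1 took 0.385% to 0.396% of all counts at 72 h, 0.513% to 0.744% at 24 h and 0.603% to 0.903% in DMSO. Its median log2 difference from DMSO was −0.69 at 72 h and 0.23 at 24 h. SPOCK1, the gene of the secreted proteoglycan testican-1 and the one with the largest difference of the 52 (ENSG00000152377, chromosome 5, 136975298 to 137598379), had 94.03, 92.8 and 90.7 CPM at 72 h, 217, 232.5 and 151 CPM at 24 h and 227, 235 and 234 CPM in DMSO. Its 3 DMSO libraries and the 24 h replicates 1 and 2 lay near each other, and 24 h replicate 3 lay between them and the 72 h libraries. The median log2 difference of SPOCK1 was −1.33 at 72 h, 2.52-fold lower, and −0.11 at 24 h.

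LOX, the gene of lysyl oxidase (chromosome 5, 122063195 to 122078360), had 156, 167 and 159 CPM at 72 h, 192, 209.9 and 253 CPM at 24 h and 294, 249 and 237 CPM in DMSO. Here the 24 h replicate 3 was the highest of its group and inside the DMSO range, while replicates 1 and 2 were below every DMSO library. Its median at 24 h was −0.24 log2 from DMSO, the nearest to the limit on that side. IGFBP7, a secreted protein of the insulin-like growth factor binding family (chromosome 4, 57030773 to 57110385), had 66.1, 64.5 and 73.3 CPM at 72 h, 124, 117 and 84.7 CPM at 24 h and 205, 84.7 and 101 CPM in DMSO. DMSO replicate 1 stood far above the other DMSO libraries, and 24 h replicate 3 was level with DMSO replicate 2. The median log2 difference of IGFBP7 at 72 h was −0.61, and −0.48, −1.12 and −0.997 without DMSO replicates 1, 2 and 3. CCBE1, which takes part in the processing of the lymphatic growth factor VEGF-C, had 63.7, 63.98 and 64.2 CPM at 72 h, 90.1, 90.1 and 76.3 CPM at 24 h and 95.9, 99.5 and 101 CPM in DMSO. The 3 groups of CCBE1 did not overlap. The metalloprotease gene ADAMTS6 averaged 12.2 ± 0.5201 CPM at 72 h, 19.1 ± 0.367 CPM at 24 h and 19.7 ± 3.78 CPM in DMSO (SD, n = 3 each).

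The 7 cell surface genes were led by ENG, endoglin (ENSG00000106991, chromosome 9, 127815012 to 127854756). ENG had 165, 167 and 159.8 CPM at 72 h, 277, 257 and 215 CPM at 24 h and 376, 289 and 262 CPM in DMSO. Its median log2 difference was −0.81 at 72 h. The 24 h and DMSO libraries of ENG overlapped in 1 place, where 24 h replicate 1 exceeded DMSO replicate 3. ITGA2, the integrin alpha chain that binds collagen together with beta 1, had 15.6, 14.2 and 14.5 CPM at 72 h, 27.7, 32.1 and 21.03 CPM at 24 h and 39.9, 24.2 and 23.4 CPM in DMSO. Its DMSO replicate 1 was the highest of the 9 libraries, and the 24 h libraries lay on both sides of DMSO replicates 2 and 3. ANTXR2, a receptor for matrix proteins that also takes up anthrax toxin, had 54.5, 51.95 and 57.2 CPM at 72 h, 90.4, 87.3 and 76.3 CPM at 24 h and 93.3, 89.2 and 85.9 CPM in DMSO. The 24 h replicates 1 and 2 lay inside its DMSO range and replicate 3 below it.

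FXYD5, a regulator of the sodium pump, averaged 75.2 ± 2.66 CPM at 72 h, 111 ± 11.4 CPM at 24 h and 135 ± 32.7 CPM in DMSO (SD, n = 3 each). TSPAN14, a tetraspanin that accompanies the protease ADAM10, had 53.9, 51.8 and 55.05 CPM at 72 h, 71.4, 70.3 and 57.7 CPM at 24 h and 93.6, 81.7 and 80.5 CPM in DMSO. As for CCBE1, the 3 groups of TSPAN14 did not overlap. CLEC14A, a lectin-domain receptor known from endothelium, averaged 33.6 ± 3.52 CPM at 72 h, 49.2 ± 5.37 CPM at 24 h and 48.9 ± 5.56 CPM in DMSO, although 8 of 9 endothelial markers were under 1 CPM. TMEM154 averaged 12.1 ± 0.273 CPM at 72 h, 20.4 ± 2.32 CPM at 24 h and 16.9 ± 2.31 CPM in DMSO. In 6 of these 7 genes DMSO replicate 1 was the highest of its group.

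**Figure D2:**
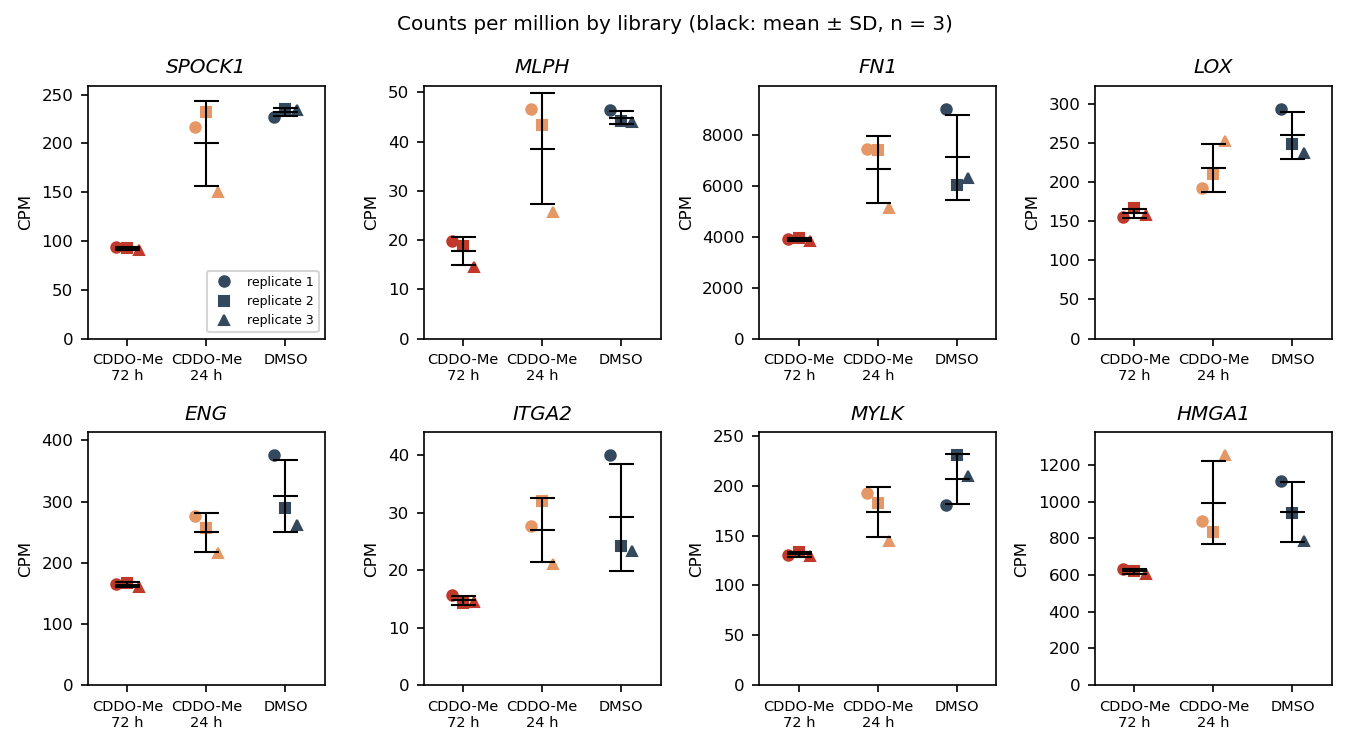
CPM of 8 of the 52 genes in each library (points, with the symbol giving the replicate) with the mean and SD of 3 libraries in black, on axes that start at 0. The 72 h points lie close together, whereas 24 h replicate 3 lies below its group mates in SPOCK1, MLPH, FN1, ENG, ITGA2 and MYLK and above them in LOX and HMGA1.

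The 12 cytoskeleton, adhesion and scaffold genes had a median log2 difference of −0.60 at 72 h and −0.15 at 24 h. The 24 h median was below DMSO in all 12, in all 7 signalling proteins and other enzymes, and in 40 of the whole 52. The rule limited this 24 h difference, and the classes were set after the members were known. The share over all genes is not given here, so the count is no test of this class. MLPH, melanophilin, the adaptor that joins RAB27A to a myosin motor on pigment granules (chromosome 2, 237485428 to 237555318), had 19.9, 18.8 and 14.5 CPM at 72 h, 46.6, 43.3 and 25.7 CPM at 24 h and 46.4, 44.1 and 43.99 CPM in DMSO. The 24 h replicates 1 and 2 were level with DMSO, and replicate 3 stood between DMSO and 72 h. Its median log2 difference was −1.23 at 72 h and −0.03 at 24 h. MYLK, myosin light chain kinase, had 130.4, 134 and 129 CPM at 72 h, 193, 183 and 145 CPM at 24 h and 180.4, 231 and 210.3 CPM in DMSO. DMSO replicate 1 was the lowest DMSO library for MYLK, and 24 h replicate 3 was nearer to 72 h than to any DMSO library. PXN, paxillin, had 245, 246 and 259 CPM at 72 h, 312, 297 and 301 CPM at 24 h and 357, 351 and 299 CPM in DMSO. Its 24 h libraries lay below DMSO replicates 1 and 2 and around replicate 3. LIMK1, which inactivates the actin-severing protein cofilin, had 82.7, 76.8 and 75.6 CPM at 72 h, 117, 101 and 85.2 CPM at 24 h and 112, 127 and 107 CPM in DMSO. The 24 h libraries of LIMK1 ran from inside the DMSO range down to near the 72 h libraries.

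DRP2, a relative of dystrophin, had 12.3, 13.98 and 12.1 CPM at 72 h, 22.1, 25.3 and 14.7 CPM at 24 h and 22.6, 21.1 and 24.8 CPM in DMSO. SHROOM2, an actin-binding protein, had 26.4, 28.4 and 25.7 CPM at 72 h, 41.9, 42.4 and 34.2 CPM at 24 h and 33.7, 46.4 and 45.4 CPM in DMSO. For both genes 24 h replicate 3 was the lowest of its group, and in DRP2 it was less than 1 CPM above the highest 72 h library. MPP4, a membrane scaffold of the MAGUK family, had 7.003, 7.44 and 7.92 CPM at 72 h, 12.4, 12.6 and 14.6 CPM at 24 h and 13.2, 12.9 and 12.4 CPM in DMSO. It was the 1 gene of this class in which 24 h replicate 3 lay above the DMSO mean. Its relative MPP1 had 47.9, 45.5 and 49.1 CPM at 72 h, 62.8, 61.4 and 50.4 CPM at 24 h and 84.5, 72.4 and 71.6 CPM in DMSO. All 24 h libraries of MPP1 lay below all DMSO libraries. NAV1, a microtubule-associated protein, averaged 142 ± 8.38 CPM at 72 h, 186 ± 23.1 CPM at 24 h and 213 ± 17.2 CPM in DMSO. The other 3 were SH3BP1, a GTPase-activating protein, SIPA1L3, a relative of GTPase-activating proteins for Rap, and UACA, a coiled-coil protein, with median log2 differences of −0.56, −0.54 and −0.60 at 72 h.

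The 7 signalling proteins and other enzymes had a median log2 difference of −0.59 at 72 h. SH2B3, also called LNK, an adaptor that dampens cytokine receptor signalling, had 98.7, 102 and 91.4 CPM at 72 h, 170.4, 165 and 163 CPM at 24 h and 181, 166 and 145 CPM in DMSO. All 3 of its 24 h libraries lay inside the DMSO range. PHLDA2, an imprinted gene known for restraining growth of the placenta, had 26.5, 25.7 and 26.4 CPM at 72 h, 40.4, 35.1 and 42.7 CPM at 24 h and 51.2, 42.8 and 37.5 CPM in DMSO. ELOVL6, which lengthens fatty acids, averaged 25.9 ± 1.02 CPM at 72 h, 36.9 ± 6.23 CPM at 24 h and 37.3 ± 2.06 CPM in DMSO. DUSP7, a phosphatase of ERK kinases, averaged 21.7 ± 0.612 CPM at 72 h, 30.5 ± 0.841 CPM at 24 h and 30.3 ± 2.803 CPM in DMSO. Its 24 h and DMSO means differed by less than their spread. STAMBPL1, a deubiquitinase, CABLES1, an adaptor of cyclin-dependent kinases, and C2CD2, a C2 domain protein, had median log2 differences of −0.61, −0.59 and −0.57 at 72 h.

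The 16 regulators of transcription and chromatin formed the most numerous class, with a median log2 difference of −0.59 at 72 h. HMGA1, an architectural protein that binds AT-rich DNA (chromosome 6, 34236873 to 34246231), had 632, 624 and 605 CPM at 72 h, 892, 835 and 1251 CPM at 24 h and 1113, 937 and 787 CPM in DMSO. For HMGA1, 24 h replicate 3 was the highest of the 9 libraries, and the other 24 h libraries lay inside the DMSO range. Processed copies of HMGA1 exist elsewhere in the genome, and the handling of reads that match several places is not given in the sources used here. KLF10, a zinc finger factor induced early by TGF-beta, had 17.6, 17.8 and 16.6 CPM at 72 h, 23.6, 19.4 and 33.2 CPM at 24 h and 25.5, 27.3 and 26.5 CPM in DMSO. Here too 24 h replicate 3 was the highest library. NPAS2, a paralog of the circadian factor CLOCK, had 12.1, 11.02 and 13.9 CPM at 72 h, 16.04, 18.4 and 18.02 CPM at 24 h and 19.5, 19.1 and 18.1 CPM in DMSO. The 24 h libraries of NPAS2 reached from below DMSO into its range. NOL4L, a gene related to nucleolar protein 4, had 7.0998, 7.17 and 6.65 CPM at 72 h, 14.03, 10.9 and 7.95 CPM at 24 h and 15.96, 12.4 and 11.04 CPM in DMSO. Its 24 h libraries ran from near the 72 h level to inside the DMSO range.

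Subunits of 3 chromatin machines were in this class. PHC2, a polyhomeotic protein of the Polycomb complex PRC1, had 102, 108 and 107 CPM at 72 h, 155, 139.8 and 149.6 CPM at 24 h and 136, 172 and 172 CPM in DMSO. All 3 of its 24 h libraries lay inside the DMSO range, of which DMSO replicate 1 was the lower end. BCOR, the BCL6 corepressor found in a variant of PRC1, averaged 19.8 ± 0.841 CPM at 72 h, 29.8 ± 2.59 CPM at 24 h and 29.7 ± 0.912 CPM in DMSO. DPF3, a subunit of the BAF remodelling complex, had 11.3, 9.18 and 9.52 CPM at 72 h, 19.2, 16.9 and 12.6 CPM at 24 h and 14.5, 15.5 and 17.5 CPM in DMSO. Here 24 h replicate 1 was above and replicate 3 below the DMSO range. ZBTB38, a zinc finger protein that binds methylated CpG, averaged 195 ± 2.499 CPM at 72 h, 241 ± 5.78 CPM at 24 h and 268 ± 36.8 CPM in DMSO. ELK3, an ETS factor that partners serum response factor, averaged 48.3 ± 1.703 CPM at 72 h, 69.7 ± 8.24 CPM at 24 h and 70.4 ± 4.97 CPM in DMSO. The rest were POU2F1 (OCT1), GSE1, a protein of a histone deacetylase complex, FOXK1, a forkhead factor, TFAP4, a helix-loop-helix factor, PPRC1, a coactivator of the PGC-1 family, ZMIZ1, a coactivator related to PIAS proteins, and ZMYND8, a reader of histone marks. Their median log2 differences at 72 h ran from −0.63 in POU2F1 to −0.51 in ZMYND8.

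The 3 channel genes were KCNG1 and KCNS1, silent potassium channel subunits that modify others, and GRIN2D, a subunit of the NMDA type of glutamate receptor. KCNG1 had 10.8, 12.6 and 11.8 CPM at 72 h, 18.8, 19.5 and 15.6 CPM at 24 h and 19.1, 18.2 and 17.6 CPM in DMSO. KCNS1 averaged 9.26 ± 0.806 CPM at 72 h, 11.98 ± 1.23 CPM at 24 h and 12.99 ± 0.293 CPM in DMSO. GRIN2D averaged 19.5 ± 1.21 CPM at 72 h, 24.6 ± 1.08 CPM at 24 h and 30.1 ± 6.17 CPM in DMSO. The pseudogene MTATP6P1 is a near copy of the mitochondrial ATP6 gene, and the table holds no mitochondrial gene, so the source of its reads is uncertain. It had 27.3, 28.9 and 25.2 CPM at 72 h, 42.4, 41.02 and 46.97 CPM at 24 h and 45.5, 43.96 and 34.4 CPM in DMSO. The highest of the 9 libraries was 24 h replicate 3.

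Compared per length, as CPM per kilobase of exon (RPKM), FN1 and HMGA1 had the highest levels of the set. FN1 averaged 226 RPKM at 72 h and 412 RPKM in DMSO, and HMGA1 267 RPKM at 72 h and 406 RPKM in DMSO. ENG followed, with 41.7 RPKM at 72 h and 78.5 RPKM in DMSO, next to IGFBP7 with 35.2 and 67.5 RPKM and MTATP6P1 with 39.8 and 60.6 RPKM in the same groups. In DMSO the SD leaves FN1 and HMGA1, and likewise ENG and IGFBP7, without a clear order. At 72 h, where the SD was smaller, HMGA1 lay above FN1 and ENG above IGFBP7. On the CPM scale 14 of the 52 averaged at least 100 over the 9 libraries and 13 under 20, and the median was 49.0 CPM, against 48.1 over the 9759 genes.

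The place of each 24 h library between the groups was set for every gene on a scale where the mean log2 CPM of DMSO is 0% and that of 72 h is 100%. The median over the 52 genes was 0.569% for 24 h replicate 1, 10.7% for replicate 2 and 38.6% for replicate 3. Replicate 3 was past 50% in 19 genes, replicate 2 in 2 and replicate 1 in 1, and replicate 3 was at or above the DMSO mean in 7. It was past 50% in 8 of the 12 cytoskeleton genes, among them UACA (87.1%), MPP1 (87.3%), LIMK1 (78.2%) and MYLK (78.1%), and in 2 of the 16 regulators of transcription. Replicate 3 was the lowest 24 h library in 36 of 52 genes (69.2%), against 46.1% of all 9759 genes, and DMSO replicate 1 the highest DMSO library in 29 (55.8%), against 33.7%. The rule used the 24 h and DMSO values, and the 9759 genes were not chosen by them. These shares and the counts past 50% are therefore shaped in part by the rule and are no test of these libraries. The part of these libraries in the makeup of the set was measured by leaving each out. Without 24 h replicate 3 the rule took 88 genes, 47 of them among the 52, and without DMSO replicate 1 it took 53, 34 of them among the 52 and FN1, HMGA1, IGFBP7 and MYLK not. The set turned over with the other libraries too: without DMSO replicate 2 the rule took 57 genes, 29 of them among the 52, and without DMSO replicate 3 it took 73, with 39. Without any 1 of the remaining 5 libraries it took 52 to 63, with 36 to 50 among the 52.

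**Figure D3:**
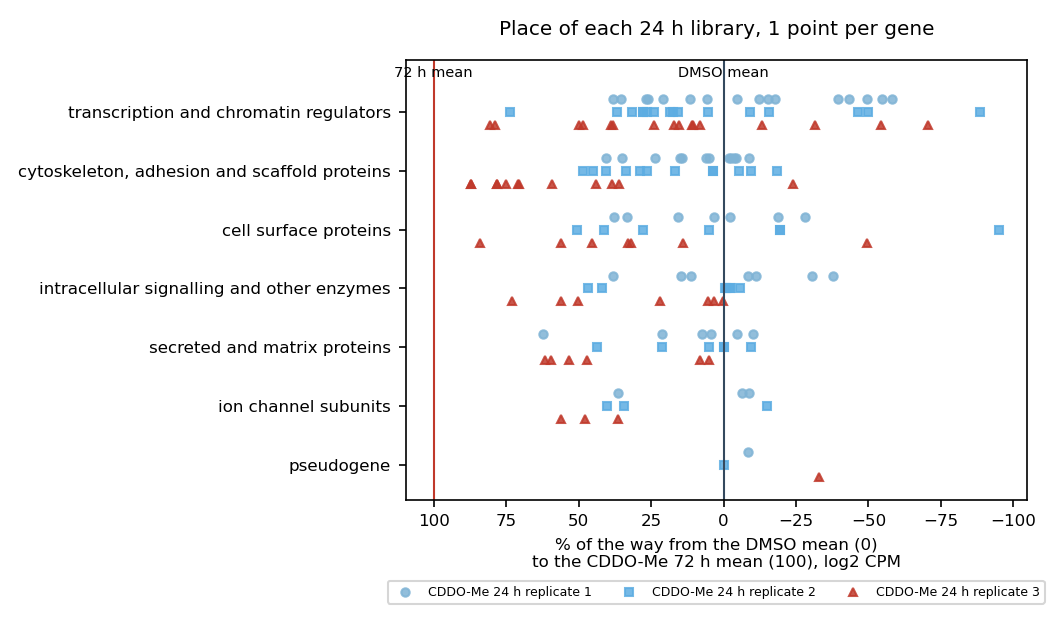
Position of each CDDO-Me 24 h library, 1 point per gene and library, in percent of the distance in log2 CPM from the DMSO mean (0, dark line) to the CDDO-Me 72 h mean (100, red line), by class. Replicate 3 (triangles) lies furthest toward 72 h for cytoskeleton genes, with 8 of 12 past 50%.

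At 24 h the median lay below DMSO in 40 of the 52 genes and above it in 12, within the limit of 0.25 that the rule set. All 3 24 h libraries were below all DMSO libraries in 3 genes (CCBE1, TSPAN14 and MPP1), in no gene were they all above, and in 9 genes all 3 lay inside the DMSO range. These counts describe the 52 genes only. The limit of 0.25 restricts them, and the shares over all 9759 genes are not given here. The median difference between 72 h and DMSO over the 52 was −0.59 without DMSO replicate 1, −0.58 without replicate 2 and −0.65 without replicate 3, and 38, 38 and 48 of the 52 kept a difference of at least 0.5. At the limit on the 72 h difference, ZMYND8, ZMIZ1 and PXN lay just inside (−0.51 each) and ADAMTS12 (−0.50), TMEM200A (−0.49) and FNBP4 (−0.49) just outside. At the limit on the 24 h difference, LOX and MPP1 (−0.24 each) and ZMYND8 (0.24) lay just inside, and TGFBI (−0.26), BGN (0.26) and NFE2L3 (−0.26) just outside. The genes set aside by symbol had differences at 72 h of −2.08 for LTBP3, −1.50 for MT2A, −0.75 for MT1E, −0.64 for COL13A1 and −0.55 for SLC7A5, so LTBP3 and MT2A were lower by more than any of the 52.

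**Figure D4:**
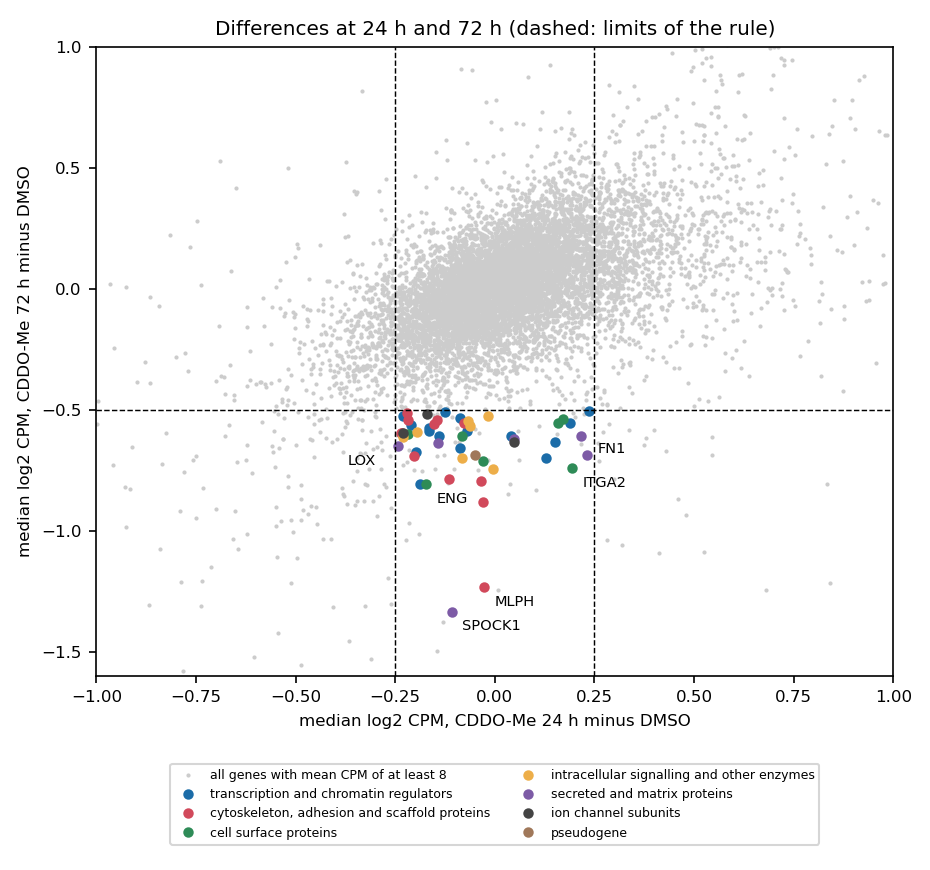
Difference of median log2 CPM from DMSO at 24 h (x) and at 72 h (y) for genes with a mean of at least 8 CPM (grey; genes beyond the axes are not drawn) and for the 52 genes coloured by class. The dashed lines are the limits of 0.5 and 0.25; SPOCK1 and MLPH stand below the rest, and the others crowd under the upper limit.

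Pathway lists, 6 of which hold a few of the 52 genes, were read in edgeR's quasi-likelihood test over 14965 genes, with p-values adjusted by Benjamini and Hochberg. At an adjusted p of 0.05 it called 469 genes lower (3.13%) and 432 higher (2.89%) at 72 h against DMSO, 176 lower (1.18%) and 145 higher (0.969%) at 24 h against DMSO, and 85 lower (0.568%) and 67 higher (0.448%) at 72 h against 24 h. Whether the replicates came from separate cultures is not stated in the labels. The p-values therefore rest on differences among these libraries, and those may be technical. The 52 genes were chosen on the same contrasts, so a call of one of them is given for completeness. Of 27 lists, 6 held a gene of the set and 21 did not. Only FN1, SPOCK1, LOX, ENG, IGFBP7, ITGA2, PXN and MYLK were in these 6. The rest of the 52 were in no list reported here. The 6 are described here because they hold genes chosen as lower. Of the other 21, at 72 h against DMSO, 12 had more lower than higher calls, 5 more higher than lower (among them NRF2 targets, with 27 higher and 0 lower of 30, and p53 targets, with 4 and 0 of 16) and 4 as many of each.

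Of 33 matrix glycoproteins tested, 8 were lower at 72 h than in DMSO and 2 higher, with a median log2 fold change of −0.19 over the list. FN1 and SPOCK1 were among the 8; the others were FBN1, EFEMP2, THBS2, TGFBI, TINAGL1 and MATN2, and EFEMP1 and EMILIN2 were higher. TGFBI, a matrix protein induced by TGF-beta, had 127, 134 and 138 CPM at 72 h, 275.5, 275.6 and 221 CPM at 24 h and 445, 291 and 330.1 CPM in DMSO. For TGFBI the log2 fold change was −1.42 ± 0.14 (SE) at 72 h (adjusted p = 5.785e-05). EFEMP1, fibulin-3, went the other way, with 71.3 ± 3.16 CPM at 72 h, 59.6 ± 2.49 CPM at 24 h and 36.9 ± 1.57 CPM in DMSO (SD, n = 3 each). Its log2 fold change was 0.95 ± 0.08 at 72 h and 0.67 ± 0.08 at 24 h (edgeR adjusted p = 6.6594e-06 and 0.00030303). At 24 h 2 glycoproteins of 33 were higher, EFEMP1 and SRPX2, and 0 lower (6 at an unadjusted p under 0.05, 3 by DESeq2). Of 19 matrix processing enzymes, 4 were lower (LOX, LOXL2, ADAMTS2 and TGM2) and 1 higher (PCOLCE2). TGM2, the crosslinking enzyme transglutaminase 2, averaged 0.863 ± 0.278 CPM at 72 h, 6.54 ± 2.47 CPM at 24 h and 11.985 ± 0.699 CPM in DMSO. For TGM2 the log2 fold change was −3.80 ± 0.31 at 72 h (edgeR adjusted p = 5.9975e-06). PCOLCE2, an enhancer of collagen maturation, averaged 18.9 ± 1.12 CPM at 72 h, 16.5 ± 2.47 CPM at 24 h and 10.7 ± 0.867 CPM in DMSO. For PCOLCE2 the log2 fold change was 0.81 ± 0.14 at 72 h (edgeR adjusted p = 0.0024577).

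Of 23 TGF-beta and activin genes, 7 were lower at 72 h, with a median of −0.19 over the list, and 0 higher (1 at an unadjusted p under 0.05, 0 by DESeq2). Beside ENG they were the ligands TGFB2 and INHBA, the effector SMAD3, and the negative regulators SKI, SKIL and SMURF2. At 24 h, against the same DMSO libraries, 5 of the list were lower: TGFB2, SMAD3, SKIL, INHBA and SMURF2. SKIL averaged 17.5 ± 0.526 CPM at 72 h, 24.2 ± 3.25 CPM at 24 h and 36.1 ± 3.44 CPM in DMSO. The log2 fold changes of SKIL were −1.05 ± 0.11 at 72 h and −0.61 ± 0.11 at 24 h (edgeR adjusted p = 5.3145e-05 and 0.008455). INHBA, which encodes the activin A chain, averaged 21.6 ± 1.58 CPM at 72 h, 24.7 ± 2.16 CPM at 24 h and 40.5 ± 2.36 CPM in DMSO. The log2 fold changes of INHBA were −0.91 ± 0.10 at 72 h and −0.74 ± 0.10 at 24 h (edgeR adjusted p = 6.5224e-05 and 0.0009218). The call of SKIL at 24 h was lost without DMSO replicate 2 (adjusted p = 0.062465). Of 12 genes of the insulin-like growth factor axis, 2 were lower at 72 h, IGF2 and IGF1R, and IGFBP7 was not called. IGF1R, the receptor, averaged 35.1 ± 1.22 CPM at 72 h, 43.1 ± 4.11 CPM at 24 h and 43.9 ± 2.40 CPM in DMSO. The log2 fold change of IGF1R was −0.33 ± 0.09 at 72 h (edgeR adjusted p = 0.046937). IGF2 averaged 0.273 ± 0.0559 CPM at 72 h, 0.890 ± 0.142 CPM at 24 h and 0.920 ± 0.298 CPM in DMSO, close to the limit of counting. Its log2 fold change was −1.73 ± 0.45 (edgeR adjusted p = 0.032798). Both calls rest on single libraries: leaving these out gave an adjusted p of up to 0.158 for IGF2 and 0.216 for IGF1R, lost without each 72 h library and without DMSO replicate 1 for both, without DMSO replicate 3 for IGF2, and without 24 h replicate 2 and DMSO replicate 2 for IGF1R.

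Of 23 integrin and focal adhesion genes, 5 were lower at 72 h (ITGA2, PXN, ITGA3, ITGA4 and ITGA5), with a median of −0.22, and 0 higher (0 at an unadjusted p under 0.05 and 0 by DESeq2). ITGA5, the alpha chain of the main fibronectin receptor, had 376, 393 and 382 CPM at 72 h, 585, 553 and 385 CPM at 24 h and 677, 593 and 567 CPM in DMSO. The log2 fold change of ITGA5 was −0.68 ± 0.12 at 72 h (adjusted p = 0.0038693). Its 24 h replicate 3 was inside the range of the 72 h libraries, which keeps it out of the 52. ITGA3, a laminin-binding alpha chain, had 317, 328 and 325 CPM at 72 h, 496, 472 and 406 CPM at 24 h and 500.3, 427 and 405 CPM in DMSO. The log2 fold change of ITGA3 was −0.46 ± 0.09 at 72 h (adjusted p = 0.0071586, and 0.052627 without 72 h replicate 1). At 24 h no integrin gene was called in either direction (5 lower and 0 higher at an unadjusted p under 0.05, 1 and 0 by DESeq2), but without 24 h replicate 3 there were 5 lower, and without DMSO replicate 1 there was 1 higher.

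Of 18 smooth muscle contractile genes, 7 were lower at 72 h (MYLK, ACTA2, CNN2, MYL9, ACTG2, TPM1 and MYOCD) and 1 higher (CNN1), with a median of −0.33 over the list; at 24 h 7 were lower, with a median of −0.46, and MYLK was not among them. MYOCD, myocardin, the coactivator of serum response factor in smooth and heart muscle, averaged 2.55 ± 0.291 CPM at 72 h, 4.52 ± 1.21 CPM at 24 h and 15.7 ± 3.81 CPM in DMSO. The log2 fold changes of MYOCD were −2.63 ± 0.23 at 72 h and −1.85 ± 0.22 at 24 h (edgeR adjusted p = 9.6241e-06 and 0.00031264). ACTG2, smooth muscle gamma actin, had 10.1, 8.86 and 9.52 CPM at 72 h, 18.2, 13.9 and 16.5 CPM at 24 h and 57.1, 28.4 and 25.7 CPM in DMSO. The log2 fold change of ACTG2 was −1.97 ± 0.30 at 72 h (adjusted p = 0.0042602).

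These list counts moved with single libraries. Without 24 h replicate 3, genes lower at 72 h than in DMSO numbered 16 of the matrix glycoproteins, 7 of the processing enzymes, 8 of the TGF-beta list, 4 of the growth factor axis, 8 of the integrin list and 8 of the smooth muscle list. Without any 1 of the 72 h libraries they numbered 7, 2, 5, 0, 2 to 3 and 3 to 4 in the same lists. Without DMSO replicate 1 the growth factor axis had 0, and without DMSO replicates 2 or 3, or without 24 h replicate 2, it had 1. The call of CNN1 was lost without any 1 of the 72 h or DMSO libraries, and of the 2 higher matrix glycoproteins 1 was left without any 1 of the 72 h libraries or without DMSO replicates 2 or 3, and 5 were called without 24 h replicate 3. At 24 h, without DMSO replicate 2, the TGF-beta list had 3 lower and the smooth muscle list 4, and without 24 h replicate 3 the matrix glycoproteins had 4 lower and 12 higher.

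**Figure D5:**
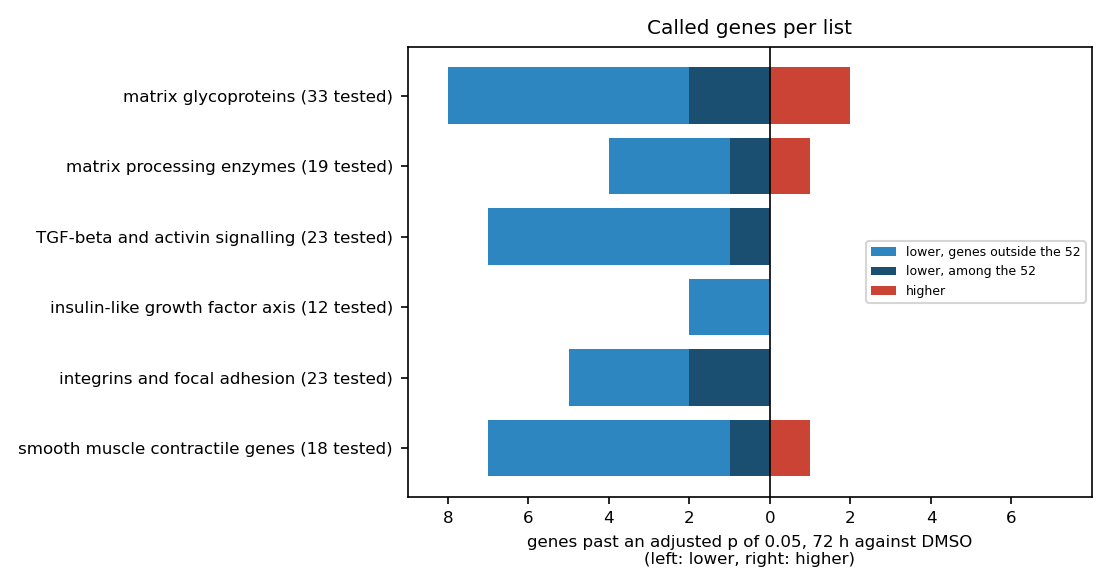
Genes past an adjusted p of 0.05 (edgeR) at 72 h against DMSO in the 6 lists that hold genes of the set: bars to the left count lower genes, dark for those among the 52, and bars to the right count higher genes. The lists were kept because they hold genes chosen as lower, so their direction partly restates the rule. Lower calls run from 2 against 0 higher in the growth factor axis, or 0 without any 1 of the 72 h libraries, to 8 against 2 in the matrix glycoproteins.

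Some features that the rule did not use were also tallied. Of the 52 genes, 51 (98.1%) are protein-coding, against 98.0% of the 9759. The median exon length was 7099.5 bases, against 5341, and the median span in the genome was 77.3 kb, against 34.1 kb. The genes lie on 21 chromosomes, with at most 4 on any. X was 1 of 7 chromosomes with 4 (DRP2, SHROOM2, BCOR and MPP1), which is 7.69% of the set, against 3.33% of the 9759 on X. In the annotation 18 share exon bases with another gene, and 7 of these with one that averaged at least 1 CPM. The shares over the 9759 genes are not given here. The kit does not keep strand, so reads of genes that overlap on opposite strands cannot be told apart. The share was over 10% of exon bases in 2, PXN with its antisense gene PXN-AS1 (12.3%) and SH3BP1. SH3BP1 shares 35.7% with a gene on the same strand listed at 0, and 13.8% with PDXP-DT on the opposite strand.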

How the data were processed

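The authors deposited a table of raw counts, 1 row per Ensembl gene, with reads summed over exons and no normalization. STAR, SAMtools, Subread, featureCounts and the builds hg38 and GRCh38 are named, without versions, per the submitters' processing notes. Which annotation release, strand setting and multi-mapping setting were used is not given in those notes or the labels. Libraries were polyadenylated and unstranded, per the labels' protocols. Where titles or design text write CDDO, the treatment label (CDDO-Me) was followed. All 9 columns matched a sample by name, and no 2 were identical.

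CPM used the column sums. Tests used edgeR 4.0.16 in R 4.3.3 (TMM size factors, filterByExpr, robust quasi-likelihood fit) with 3 group means and all 9 libraries, 14965 genes and a common biological coefficient of variation of 11.5%. The fit was also run on simulated counts in which no library stood apart. That run does not cover the uneven spread of these libraries. The SE of a fold change was taken from its F statistic. Alternatives included DESeq2 1.42.0. Members and lists were chosen with earlier results of these data known, and classes after the members were. One gene list is not reported here. Named genes are the 20 members with the lowest difference at 72 h, the 10 with the highest CPM, the lowest member of each list, the 3 genes on each side of a limit, and up to 2 other genes per list with the smallest adjusted p; other members are given by class. Gene types came from GENCODE 29, coordinates from the table, promoters from RefSeq (GRCh38.p14). With 3 samples a group the precision rests on the spread between libraries, and the limit that a count of 0 allows covers counting error only.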

Additional observations from a re-analysis of the deposited data

Results flagged for a closer look

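For 5 genes outside the 52, from the 6 pathway lists described, the level differed between CDDO-Me 72 h and 24 h by edgeR's test. No 24 h vehicle was analysed here, so the drug and any difference in culture time cannot be told apart in this comparison. TGFBI, which missed the set by its 24 h difference of −0.26, was lower at 72 h than at 24 h by a log2 fold change of −0.93 ± 0.14 (adjusted p = 0.0065908), and this was lost without 72 h replicate 1 (adjusted p = 0.0547). TGM2, whose mean was under the limit of 8 CPM, was lower by −2.88 ± 0.31 (edgeR adjusted p = 0.00043912), and the call held without each of the 9 libraries in turn. ITGA3 was lower by −0.48 ± 0.09 (edgeR adjusted p = 0.021615), lost without 24 h replicates 1 or 2 or any 1 of the 72 h libraries (adjusted p up to 0.162). CNN1, calponin 1, named after its values were seen, went the other way, with 42.4 ± 0.653 CPM at 72 h, 26.5 ± 2.81 CPM at 24 h and 32.7 ± 1.78 CPM in DMSO (SD, n = 3 each), higher at 72 h than at 24 h by 0.69 ± 0.10 (edgeR adjusted p = 0.0047743, up to 0.0466 with 1 library left out). SRF, serum response factor, also named after its values were seen, averaged 114 ± 1.24 CPM at 72 h, 89.96 ± 5.21 CPM at 24 h and 119.6 ± 6.60 CPM in DMSO, higher at 72 h than at 24 h by 0.37 ± 0.08 (edgeR adjusted p = 0.038559). This was lost without 24 h replicates 1 or 2, any 1 of the 72 h libraries or DMSO replicate 2 (adjusted p up to 0.203).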

How the results depend on the processing

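For the 25 members named by the rule, all 200 alternative values of the 72 h difference kept their direction and moved by less than 1 SD, the root of the summed variances of log2 CPM in both groups. Leaving out a library or taking group means could not give another outcome. The rule sets every 72 h library below every DMSO library, and with 3 values such shifts stay within that SD. Only the library sizes by trimmed mean of M values were free to differ, so these 2 outcomes are no test. Of the 200 values, 2 moved by over 1.5 times, both IGFBP7 (−0.61, against −1.12 without DMSO replicate 2 and −0.997 without replicate 3), and 10 values of 4 genes (HMGA1, PXN, ZBTB38 and IGFBP7) were under the limit of 0.5. The number of genes the rule takes was 52 with library sizes by trimmed mean of M values (46 shared with the set; FOXK1, GRIN2D, LOX, MPP1, TSPAN14 and UACA not) and 49 with relative log expression (43 shared). It was 90 with a minimum of 1 CPM, 44 with 16 CPM, 2 with a difference of at least 1, 18 with 24 h within 0.1 of DMSO and 59 with group means (32 shared). Leaving out 1 library gave 52 to 88, and leaving out both 24 h replicate 3 and DMSO replicate 1, an alternative chosen after seeing the data, gave 90 (34 shared).

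Genes called at 72 h against DMSO, lower and higher, were 1398 and 1326 without both of these libraries, 941 and 835 with only the 2 groups compared in the fit, and 212 to 1014 and 188 to 958 with 1 library left out. At 24 h against DMSO they were 301 and 245 with DESeq2, 1639 and 1825 without both libraries, 356 and 306 with no filter, 57 and 43 with the 2 groups only, and 77 to 783 and 57 to 874 with 1 library left out. At 72 h against 24 h they were 225 and 163 with DESeq2, 1875 and 1596 without both libraries, 304 and 203 with no filter, and 11 to 1048 and 20 to 795 with 1 library left out. With 1 library left out, the highest of these counts came without 24 h replicate 3. The cause was not tested.

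List counts at 72 h moved as follows. Without both libraries, lower genes were 16 matrix glycoproteins, 7 processing enzymes and 6 of the growth factor axis, and higher genes 8, 3, 1 of the growth factor axis, 4 of the TGF-beta list and 2 integrin genes. With the 2 groups only, lower genes were 16, 7 and 4 in the same lists, and higher genes 1 each in the TGF-beta list and the growth factor axis. With no filter, lower genes were 13 matrix glycoproteins and 9 integrin genes; relative log expression gave 0 higher smooth muscle genes. With 1 library left out, lower genes were 7 to 16, 2 to 7, 5 to 9, 0 to 4, 2 to 8 and 3 to 8, and higher genes 1 to 5, 1 to 2, 0 to 1, 0 to 1, 0 to 0 and 0 to 1, in the order of the lists in the report.

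Same-numbered libraries deviated together by r of 0.0013 to 0.174, so the numbers were not taken to pair samples. With the replicate number as a block, 510 genes were lower and 453 higher at 72 h against DMSO, 197 and 161 at 24 h against DMSO, and 128 and 91 at 72 h against 24 h. Depth limits low genes such as IGF2, and 3 libraries a group limit the rest.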
